A study of Homo sapiens with 12 samples.

Results

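Collagens, laminins and integrins are the building blocks of the extracellular matrix and the receptors that hold cells to it. Gene symbols of the form COL, number, A and number, of the laminin alpha, beta and gamma chains, of the integrin alpha chains and of integrin beta chains 1 to 8 were taken from the count table, together with FN1 (fibronectin), THBS1 (thrombospondin-1) and SPARC. The rule used names only and found 85 of 26334 genes, of which 44 were collagen chains, 12 laminin chains, 18 integrin alpha chains, 8 integrin beta chains and 3 the named glycoproteins. They were followed in shA673-1c cells, a derivative of the established Ewing sarcoma line A673 that was kept in DMEM high glucose with 10% FBS, blasticidin at 20 µg/ml and zeocin at 200 µg/ml. All 12 libraries came from this line, and the labels name no other genotype and no agent beside actinomycin D and these antibiotics. The titles of all 12 samples carry the tag CTL. Cells were sampled after 0, 1, 2 and 4 h of 5 µM actinomycin D, a drug that binds DNA and blocks transcription, in 3 biological replicates per time point. The labels list no vehicle-treated libraries, so time in the drug and time in culture cannot be told apart. In bulk libraries such as these, fewer cells that carry a transcript and less of it per cell cannot be told apart either.

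Collagens are trimers of alpha chains. Type I, III and V chains form fibrils, type IV chains form the network of basement membranes, and type VI chains form beaded microfilaments. Laminins are trimers of an alpha, a beta and a gamma chain, and fibronectin is a dimer that cells assemble into fibrils through integrins. Each integrin is an alpha chain paired with a beta chain, and the pair sets whether it binds collagen, laminin, fibronectin or a partner on another cell. When transcription is blocked, an mRNA that decays faster than the rest of the poly(A) RNA loses share in the library, and one that decays more slowly gains share. Values are given as CPM, a count scaled to a fixed library total, after TMM scaling, which sets libraries to a common level by a trimmed mean over genes. Slopes are log2 changes per hour on that relative scale, and "rose" or "fell" is written only of a slope with an adjusted p below 0.05 in edgeR's quasi-likelihood test.

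Library totals ran from 9147018 to 11194705 counts. The short-lived transcripts MYC, JUN, IER2 and EGR1 all fell, with slopes from -1.12 (MYC) to -0.56 (EGR1) log2 per h. GAPDH and ACTB, which decay slowly, rose on this scale at 0.15 and 0.12 log2 per h. Scaling the libraries to GAPDH and ACTB instead shifted the median slope of all tested genes from 0.0093 to -0.13 log2 per h, so values on both scales are given where the sign of a slope differs between them. The Ewing sarcoma marker CD99 was listed at 0 counts in all 12 libraries. So were 8 of 8 other genes of the pseudoautosomal region looked up after this was seen, among them SLC25A6, a mitochondrial carrier that cells use widely, so the 0 does not show that the line lacks CD99. Of the other Ewing sarcoma markers, NR0B1 at 0 h was at 38.1 ± 5.04 CPM and CCND1 at 1676 ± 55.1 CPM (SD, n = 3). The 5 endothelial markers summed to at most 1.31 CPM and the 5 epithelial markers to at most 0.783 CPM. Of the 5 fibroblast markers, DCN, LUM and PDGFRA had at most 13 counts in a library, while PDGFRB (178 ± 25.8 CPM at 0 h) and THY1 (37.7 ± 6.39 CPM) were detected.

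At 0 h the 85 genes together held 2.38, 2.20 and 2.30% of all counts in the 3 libraries, and at 4 h 3.01, 3.14 and 3.20%. FN1 alone held 1.11, 1.01 and 1.11% at 0 h and 1.38, 1.48 and 1.53% at 4 h. The 4 h libraries were above the 0 h libraries in both quantities, with no overlap. A mean of at least 10 counts was reached by 49 members, and 32 reached a mean of 200. The other 36 members stayed below the filter with at most 15 counts in any library, and COL6A6, COL9A1 and ITGAD were at 0 in all 12.

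To compare levels between genes, CPM was divided by the length of the canonical transcript in kb. FN1 had the highest level per kb at 0 h, at 1233 ± 60.6 CPM per kb (SD, n = 3). COL1A1, the alpha1 chain of type I collagen, followed at 484 ± 30.4 CPM per kb. SPARC, a secreted collagen-binding protein, was at 471 ± 13.7 CPM per kb, and its 3 libraries lay within the range of those of COL1A1. ITGB1, the integrin beta chain with the most alpha partners, had 172 ± 6.22 CPM per kb and COL3A1, the type III collagen chain, 163 ± 18.4 CPM per kb, again with overlapping libraries. The fibronectin receptor chain ITGA5 (121 ± 5.64 CPM per kb), COL5A2 (106 ± 12.6 CPM per kb) and LAMB1 (95.6 ± 13.1 CPM per kb) came next, each overlapping its neighbour in the order. At the lower end of the tested members stood LAMA3 (0.292 ± 0.147 CPM per kb) and ITGA2 (0.215 ± 0.0371 CPM per kb), whose libraries also overlapped.

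**Figure D1:**
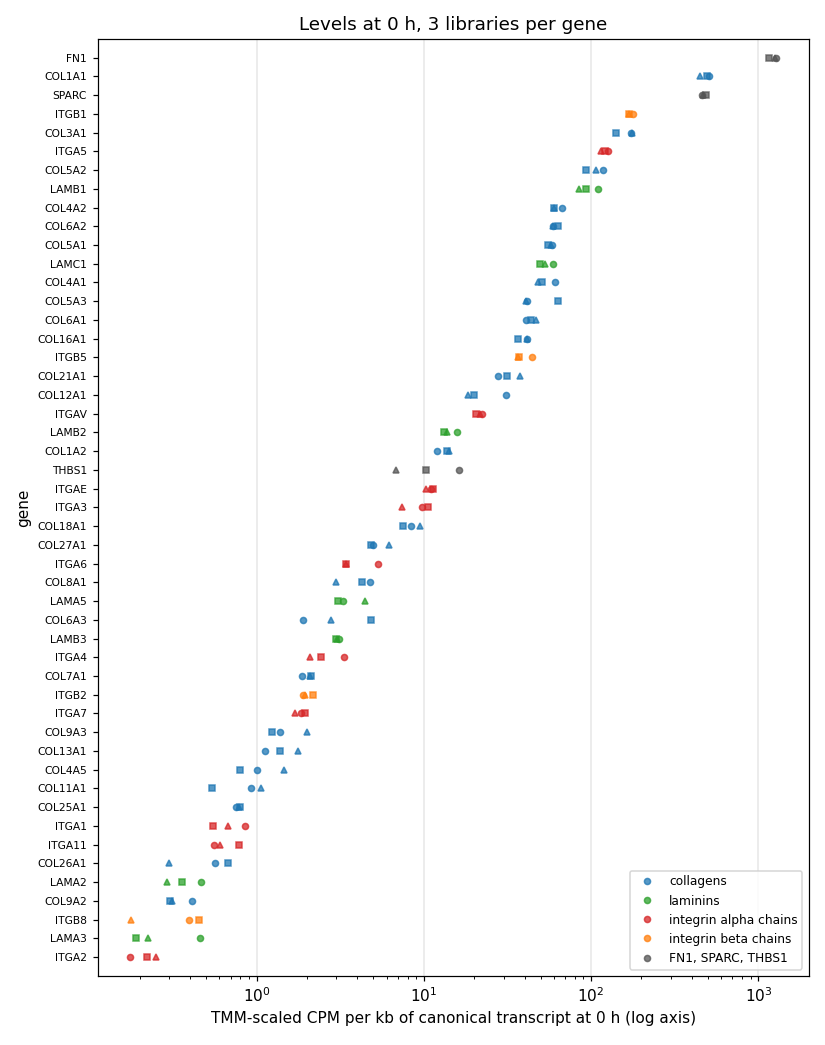
TMM-scaled CPM per kb of canonical transcript at 0 h (horizontal log axis) for the 49 tested genes (vertical axis), with a circle, square and triangle for replicates 1, 2 and 3 and a colour for each family. FN1, COL1A1 and SPARC lie above all others, and the 3 libraries of THBS1, COL6A3 and LAMA3 have the largest SD relative to their mean.

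Chains that share a protein were not at equal levels. The level per kb of COL1A1 was 36.7 ± 5.49 times that of COL1A2 at 0 h (SD, n = 3), and the usual type I collagen molecule is known to hold chains of both genes. COL4A1 and COL4A2, which are transcribed from a shared promoter region in opposite directions, differed little, at a ratio per kb of 0.851 ± 0.0525. COL6A1 was at 0.725 ± 0.0555 times COL6A2 but 16.0 ± 6.36 times COL6A3 per kb. Among the laminins, LAMB1 was at 1.78 ± 0.158 times LAMC1, while the tested alpha chains LAMA2, LAMA3 and LAMA5 together came to 0.0794 ± 0.0130 times LAMC1. LAMA1 and LAMA4, the remaining alpha chains, had at most 13 and 8 counts in a library. The 9 tested alpha chains that pair with ITGB1 summed to 0.940 ± 0.0338 times ITGB1 per kb, and ITGA5 made up 74.7 ± 0.604% of that sum. With lengths of the longest annotated transcripts, ITGB1 was at 114 CPM per kb, below COL3A1, and the ratio of the 9 alpha chains to ITGB1 was 1.23 ± 0.0445, so its side of 1 depends on the transcript used.

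Over the 4 h most of these transcripts rose on the TMM scale, which is not the same as share of the library. Under TMM scaling 36 of the 49 tested members rose (73%) and 0 fell, and with counts scaled to GAPDH and ACTB only 1 rose (COL6A1) and 6 fell (THBS1, LAMA2, ITGA6, ITGA4, LAMB1 and ITGA5). Among all 12032 tested genes, 30.7% rose and 32.1% fell under TMM scaling. Scaled to GAPDH and ACTB, 0.931% of all genes rose and 64.2% fell. Well-counted genes are called more often, so the members with a mean of at least 200 counts were also set beside all genes of that depth: 28 of 32 rose, against 40.4% of 7246 genes. The median slope of the members was 0.14 log2 per h, against 0.0093 for all tested genes, and 43 of 49 lay above the median of all genes. Without adjustment, 0 members had a negative slope at a p below 0.05, and DESeq2 also called 0 members negative and 34 positive. Neither of these fits held a replicate term. With replicates as blocks, 42 members rose and 1, THBS1, fell, beside 36.2% and 34.8% of all genes.

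**Figure D2:**
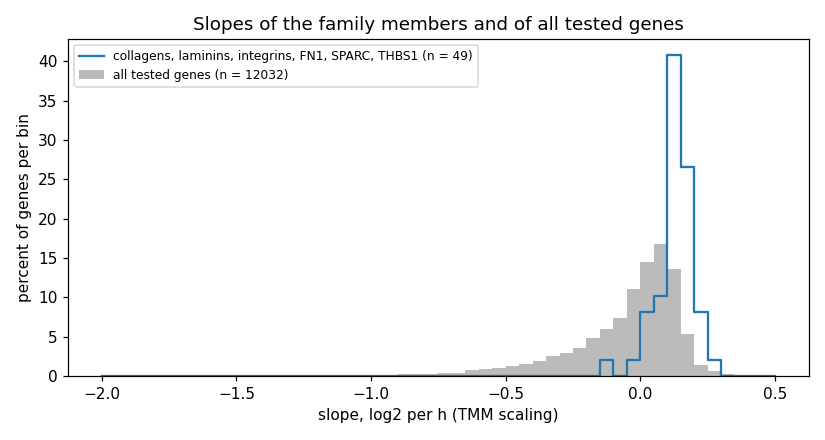
Slopes under TMM scaling (horizontal axis, log2 per h, bins of 0.05) as a percent of genes per bin (vertical axis), with grey bars for all 12032 tested genes and a blue line for the 49 members. The line peaks to the right of the bars, around the members' median of 0.14 log2 per h, while the bars have a long tail of negative slopes in which no member lies below -0.11.

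Comparing 4 h with 0 h directly gave a similar count. At 4 h 34 members were higher and 0 lower, and with scaling to GAPDH and ACTB 2 were higher (COL6A1 and COL7A1) and 4 lower. Of all tested genes, 28.7% were higher and 31.6% lower. DESeq2 called 33 members higher and 0 lower, and 0 members were lower at an unadjusted p below 0.05 in edgeR. These fits held no replicate term, and with replicates as blocks THBS1 was lower at 4 h. In 34 members all 3 libraries at 4 h lay above all 3 at 0 h, in 15 the ranges overlapped and in 0 all 4 h libraries lay below. Over all tested genes these shares were 30.4% above and 33.0% below.

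Courses were also compared with a straight line on the log2 scale. In edgeR's test of departure from a line, 0 of 49 members passed, also at an unadjusted p below 0.05, beside 2.70% of all genes. With replicates as blocks 7 members passed (FN1, ITGB1, COL5A2, COL3A1, COL12A1, SPARC and ITGB5), beside 17.2% of all genes. In each of the 7 the mean level moved less from 0 to 1 h than from 1 to 2 h or from 2 to 4 h. The last step spans 2 h and the others 1 h, so these differences are not rates per hour. For FN1 the log2 difference of the means was 0.096 from 0 to 1 h, 0.28 from 1 to 2 h and 0.22 from 2 to 4 h. For ITGB1 these differences were 0.0063, 0.23 and 0.24.

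**Figure D3:**
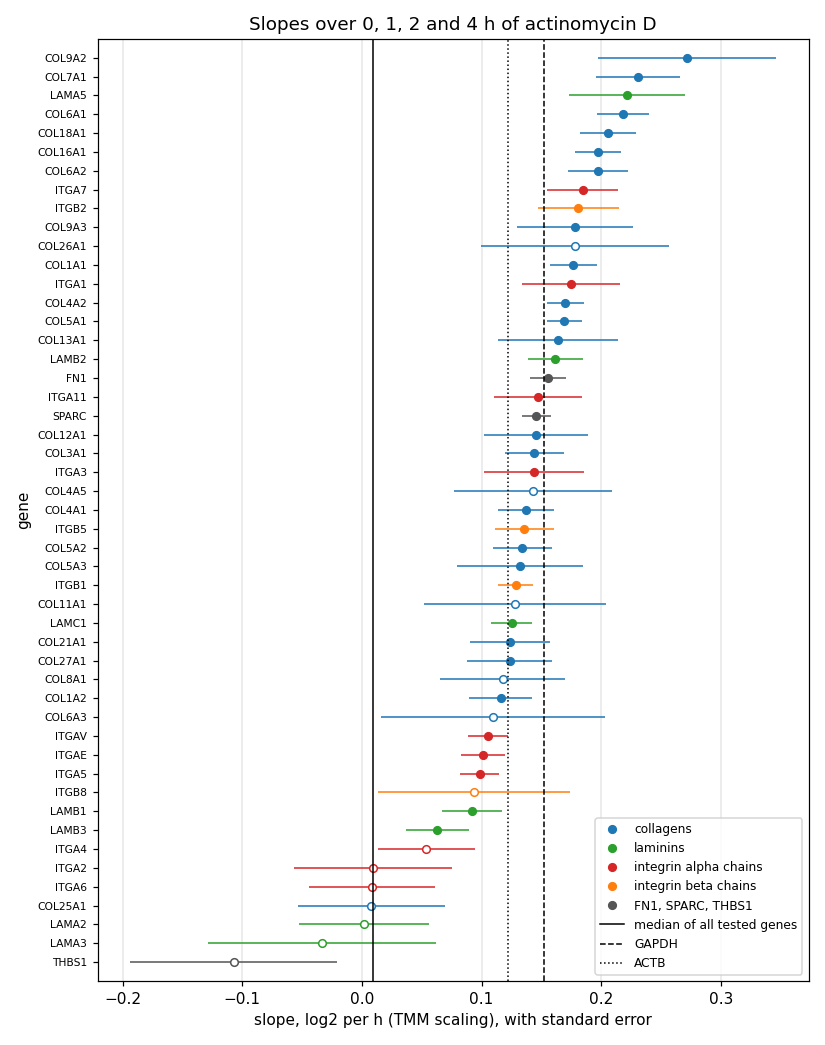
Slope under TMM scaling with its standard error (horizontal axis, log2 per h) for the 49 tested genes (vertical axis), coloured by family, with filled points for an adjusted p below 0.05. Vertical lines mark the median of all tested genes (0.0093), ACTB (0.12) and GAPDH (0.15), and most filled points lie right of the ACTB line.

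Of the 25 tested collagen chains, 19 rose and 0 fell, with a median slope of 0.15 log2 per h, and scaled to GAPDH and ACTB 1 rose and 0 fell around a median of 0.0083. Per kb of transcript, the fibril-forming COL1A1 and COL3A1 were the most abundant of them. COL1A1 had 3001, 2928 and 2659 CPM at 0 h, 3124, 3580.3 and 3027 at 1 h, 3800.2, 3901 and 3122 at 2 h and 4463, 5036 and 4554 at 4 h. The 4 h libraries lay above the 0 h libraries, 1.64-fold in the fit, and COL1A1 rose (slope 0.18 log2 per h, SE 0.020, adjusted p 9.07e-07). COL1A2, the alpha2 chain of type I collagen, had 60.4, 70.1 and 71.9 CPM at 0 h, 63.4, 74.5 and 72.7 at 1 h, 70.2, 91.9 and 83.9 at 2 h and 79.4, 104 and 90.8 at 4 h. It rose with a lower slope of 0.12 log2 per h, and under GAPDH and ACTB scaling its slope was -0.022. COL3A1, the only chain of type III collagen, had 945, 778 and 959.6 CPM at 0 h, 1022, 835 and 988 at 1 h, 1189, 980.3 and 1186 at 2 h and 1421, 1145 and 1368 at 4 h. COL3A1 rose at 0.14 log2 per h, and its replicate 2 was the lowest library at 0 h.

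Type V collagen chains, which help start fibrils, rose as well. COL5A1 had 493, 467 and 483 CPM at 0 h, 515, 560.0 and 548 at 1 h, 630.5, 606 and 583 at 2 h and 695, 795 and 818 at 4 h, with no overlap between 0 h and 4 h, and rose (slope 0.17 log2 per h, SE 0.014, adjusted p 5.19e-08). COL5A2 had 804, 633 and 728 CPM at 0 h, 838, 670.2 and 747 at 1 h, 973, 778 and 916 at 2 h and 1125, 926 and 1028 at 4 h. It rose at 0.13 log2 per h, and replicate 1 was the highest library at 0 h and at 4 h. COL5A3 had 258, 392 and 254 CPM at 0 h, 266, 432 and 274 at 1 h, 325, 467 and 299.8 at 2 h and 342, 574 and 377 at 4 h. Here replicate 2 stood above the other libraries at each time, the 0 h and 4 h ranges overlapped, and the slope of 0.13 log2 per h passed narrowly (adjusted p 0.0376). The call for COL5A3 was lost when any of 5 libraries was left out (0 h replicate 1 or 3, 1 h replicate 1 or 3, or 4 h replicate 2), where the slope went down to 0.071. Under GAPDH and ACTB scaling the slopes of COL5A2 and COL5A3 were -0.0044 and -0.0033 log2 per h. COL27A1, a fibrillar chain of cartilage, had 38.9, 37.7 and 48.5 CPM at 0 h, 44.7, 42.3 and 60.2 at 1 h, 41.5, 45.9 and 51.5 at 2 h and 57.2, 52.7 and 72.6 at 4 h. It rose at 0.12 log2 per h, or -0.015 under GAPDH and ACTB scaling, and lost its call without 4 h replicate 3 (adjusted p 0.0572). COL11A1, a fibrillar chain best known from cartilage, was low at 6.18 ± 2.00 CPM at 0 h and 8.63 ± 2.46 CPM at 4 h (SD, n = 3) and did not pass (slope 0.13 log2 per h, adjusted p 0.154, adjusted p 0.00156 with replicates as blocks).

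The basement membrane chains COL4A1 and COL4A2 were nearly level with each other. COL4A1 had 397, 333 and 316 CPM at 0 h, 402, 373 and 327 at 1 h, 472, 429.7 and 389.9 at 2 h and 549, 499 and 455 at 4 h. COL4A2 had 431, 389 and 388 CPM at 0 h, 437, 442 and 405 at 1 h, 554, 505 and 487 at 2 h and 621, 642 and 634 at 4 h. Both rose, COL4A1 at 0.14 log2 per h (-0.0013 under GAPDH and ACTB scaling) and COL4A2 more steeply (slope 0.17 log2 per h, SE 0.015, adjusted p 9.60e-08), and in neither did 0 h and 4 h overlap. COL4A5, a chain of the kidney basement membrane, was at 7.12 ± 2.24 CPM at 0 h and 10.9 ± 3.39 CPM at 4 h (SD, n = 3) and had a slope of 0.14 log2 per h that missed the threshold (adjusted p 0.0691, adjusted p 0.000253 with replicates as blocks). COL18A1, the basement membrane collagen from which endostatin is cleaved, had 45.5, 40.7 and 51.4 CPM at 0 h, 52.0, 55.6 and 57.6 at 1 h, 64.9, 62.6 and 56.5 at 2 h and 72.0, 80.3 and 94.4 at 4 h. Its libraries did not overlap between 0 h and 4 h, and it rose (slope 0.21 log2 per h, SE 0.024, adjusted p 1.26e-06).

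The chains of type VI collagen differed in level and in spread between replicates. COL6A1 had 172, 185 and 197 CPM at 0 h, 197, 224 and 236 at 1 h, 239, 267 and 236 at 2 h and 289.7, 353 and 381 at 4 h, and it rose 1.85-fold by 4 h (slope 0.22 log2 per h, SE 0.022, adjusted p 2.46e-07). COL6A1 was also the only member that rose under GAPDH and ACTB scaling, at 0.082 log2 per h (adjusted p 0.0298). COL6A2 had 203, 219.8 and 205 CPM at 0 h, 206, 259 and 235 at 1 h, 268, 292 and 231 at 2 h and 297, 398 and 384 at 4 h, and it rose (slope 0.20 log2 per h, SE 0.025, adjusted p 3.60e-06). COL6A3, the long chain of the same microfilaments, had 19.8, 50.6 and 29.2 CPM at 0 h, 18.3, 49.5 and 25.9 at 1 h, 22.9, 55.5 and 29.6 at 2 h and 27.7, 65.4 and 35.9 at 4 h. Replicate 2 of COL6A3 was above and replicate 1 below the others at every time point, the ranges at 0 h and 4 h overlapped, and the slope of 0.11 log2 per h missed the threshold (SE 0.094, adjusted p 0.320). It was 0.0016 without 4 h replicate 2 and 0.19 without 0 h replicate 2. Within replicates COL6A3 had slopes of 0.14, 0.10 and 0.091 log2 per h, and it passed at adjusted p 0.000131 with replicates as blocks, although scaled to GAPDH and ACTB its slope was -0.027.

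Among the collagens that decorate or anchor fibrils, COL16A1 had 223, 197 and 223 CPM at 0 h, 239, 243 and 279.5 at 1 h, 290.3, 279.9 and 293 at 2 h and 339, 358 and 425 at 4 h. COL7A1, the chain of the anchoring fibrils below epithelia, had 17.3, 19.5 and 19.2 CPM at 0 h, 21.0, 28.1 and 29.2 at 1 h, 24.6, 31.9 and 24.4 at 2 h and 32.5, 40.1 and 40.1 at 4 h. COL16A1 rose (slope 0.20 log2 per h, SE 0.019, adjusted p 2.18e-07), and COL7A1 rose 2.01-fold by 4 h (slope 0.23 log2 per h, SE 0.035, adjusted p 2.61e-05), both with no overlap between 0 h and 4 h. COL12A1 had 364, 234 and 215 CPM at 0 h, 309, 284 and 219 at 1 h, 393, 361 and 281 at 2 h and 440.5, 411 and 320.3 at 4 h. COL21A1 had 116, 131 and 158 CPM at 0 h, 122, 129.8 and 155 at 1 h, 130.4, 155 and 182 at 2 h and 154, 183 and 219 at 4 h. In COL12A1 replicate 1 was the highest library at 0 h and in COL21A1 replicate 3 was, their 0 h and 4 h ranges overlapped, and they rose at 0.15 and 0.12 log2 per h (0.0083 and -0.013 under GAPDH and ACTB scaling). COL8A1, a short network-forming chain of vessels and cornea, had 26.1, 23.4 and 16.4 CPM at 0 h, 25.6, 27.2 and 19.5 at 1 h, 33.5, 29.1 and 19.5 at 2 h and 36.0, 34.2 and 20.7 at 4 h. Its slope of 0.12 log2 per h narrowly missed the threshold (adjusted p 0.0607, adjusted p 0.000145 with replicates as blocks), and it was -0.022 under GAPDH and ACTB scaling.

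The remaining tested collagens had few counts. COL9A2, a chain of type IX collagen on cartilage fibrils, had the highest slope of all members but a mean of only 16.6 counts, at 0.978 ± 0.174 CPM at 0 h and 2.37 ± 1.05 CPM at 4 h (SD, n = 3) (slope 0.27 log2 per h, SE 0.075, adjusted p 0.00457). That slope rested on 4 h replicate 3, without which it was 0.18 log2 per h (adjusted p 0.0578). COL9A3 was at 3.83 ± 1.00 CPM at 0 h and 6.03 ± 0.607 CPM at 4 h (SD, n = 3) and rose (slope 0.18 log2 per h, SE 0.048, adjusted p 0.00423). COL13A1, a membrane-spanning collagen, was at 4.49 ± 1.03 CPM at 0 h and 6.72 ± 1.29 CPM at 4 h (SD, n = 3) and rose at 0.16 log2 per h, a call that was lost without 4 h replicate 3. COL26A1, at 1.53 ± 0.581 CPM at 0 h and 2.58 ± 0.868 CPM at 4 h (SD, n = 3), missed the threshold at 0.18 log2 per h (adjusted p 0.0595, adjusted p 0.0478 with replicates as blocks), and was 0.092 without 4 h replicate 3. COL25A1, another membrane-spanning chain, was at 6.00 ± 0.188 CPM at 0 h and 5.95 ± 1.56 CPM at 4 h (SD, n = 3) with a slope of 0.0078 log2 per h. The 19 collagens below the filter included COL2A1, the main chain of cartilage, with at most 3 counts in a library, COL10A1, of hypertrophic cartilage, with at most 3, and COL17A1, of hemidesmosomes, with at most 8. COL11A2, COL15A1, COL24A1, COL4A4, COL8A2, COL14A1, COL20A1, COL28A1, COL4A3, COL4A6, COL23A1, COL19A1, COL6A5 and COL22A1 made up the rest besides COL6A6 and COL9A1, with COL11A2 the highest at 3 to 14 counts.

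**Figure D4:**
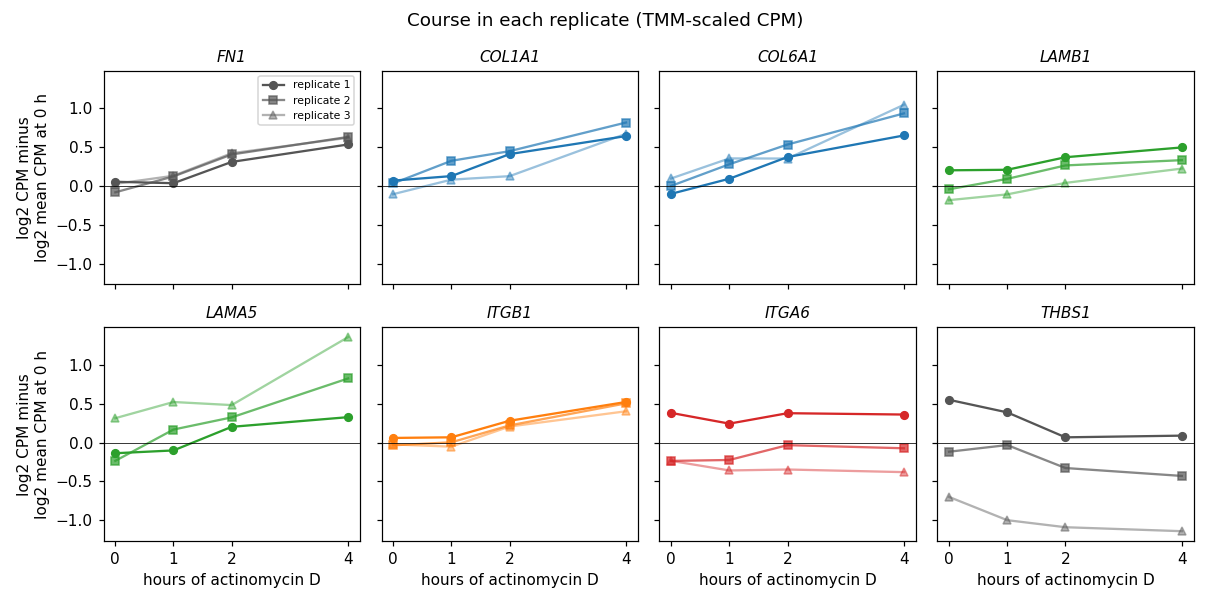
Log2 CPM minus the log2 mean CPM at 0 h (vertical axis) over hours of actinomycin D (horizontal axis) for 8 genes, with a line and marker for each replicate. FN1, COL1A1, COL6A1 and ITGB1 end higher than they began in all 3 replicates, ITGA6 ends near where it began in each, and THBS1 starts at 3 separate levels and ends lower in each.

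Of the 7 tested laminin chains, 5 rose and 0 fell, with a median slope of 0.092 log2 per h, while under GAPDH and ACTB scaling 0 rose and 2 fell (LAMA2 and LAMB1) around a median of -0.046. LAMB1, the beta1 chain, had 621, 524 and 476 CPM at 0 h, 624, 575 and 501 at 1 h, 698, 649 and 555 at 2 h and 761, 679.6 and 630.5 at 4 h. Replicate 1 was the highest at each time, all 4 h libraries lay above those at 0 h, and LAMB1 rose (slope 0.092 log2 per h, SE 0.025, adjusted p 0.00454) but fell under GAPDH and ACTB scaling, at -0.046 log2 per h (adjusted p 0.0378). LAMC1, the gamma1 chain found in most laminins, had 467, 393 and 418 CPM at 0 h, 460.2, 429 and 425 at 1 h, 541, 486 and 505 at 2 h and 631, 586 and 555 at 4 h, and it rose (slope 0.13 log2 per h, SE 0.017, adjusted p 9.09e-06), with -0.013 under GAPDH and ACTB scaling. LAMB2, the beta2 chain of muscle and kidney laminins, had 90.4, 75.5 and 78.1 CPM at 0 h, 104, 93.0 and 105 at 1 h, 119, 105 and 104 at 2 h and 147, 118 and 128 at 4 h. LAMB2 rose (slope 0.16 log2 per h, SE 0.023, adjusted p 1.25e-05), and its 4 h libraries all lay above its 0 h libraries.

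The alpha chains, which carry the main cell-binding sites of laminins, moved unequally. LAMA5 had 37.3, 34.9 and 51.0 CPM at 0 h, 38.3, 46.1 and 58.9 at 1 h, 47.2, 51.4 and 57.3 at 2 h and 51.5, 72.7 and 105 at 4 h. It rose (slope 0.22 log2 per h, SE 0.048, adjusted p 0.000794), but the 3 replicates had slopes of 0.13, 0.25 and 0.26 log2 per h, with replicate 3 the highest at each time, and without 4 h replicate 3 the slope was 0.15. LAMA2, known from muscle basement membrane, was at 3.61 ± 0.848 CPM at 0 h and 3.83 ± 0.399 CPM at 4 h (SD, n = 3) with a slope of 0.0018 log2 per h (adjusted p 0.978), and it fell under GAPDH and ACTB scaling at -0.14 (adjusted p 0.0270). LAMA3, known from epithelial basement membrane, was at 3.11 ± 1.57 CPM at 0 h and 2.90 ± 1.40 CPM at 4 h (SD, n = 3) with a slope of -0.034 log2 per h (SE 0.095, adjusted p 0.777). LAMB3, the beta chain that joins LAMA3, was at 12.2 ± 0.266 CPM at 0 h and 14.6 ± 1.72 CPM at 4 h (SD, n = 3) and passed narrowly (slope 0.063 log2 per h, SE 0.026, adjusted p 0.0480). Leaving out any of 10 of the 12 libraries (all but 1 h replicate 2 and 4 h replicate 1) ended the LAMB3 call, as did library totals, DESeq2 and testing every gene with a count, and without 4 h replicate 2 its slope was 0.040 log2 per h. It was -0.074 log2 per h under GAPDH and ACTB scaling. LAMC3, LAMA4, LAMA1 and LAMB4 were below the filter, with at most 15, 8, 13 and 5 counts.

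Fibronectin and SPARC rose, and thrombospondin-1 did not. FN1 had 10729, 9766 and 10532 CPM at 0 h, 10593, 11253 and 11319 at 1 h, 12808, 13685 and 13836 at 2 h and 14961, 16000.1 and 15882 at 4 h. All 4 h libraries lay above all 0 h libraries, 1.51-fold in the fit (slope 0.16 log2 per h, SE 0.015, adjusted p 1.76e-07). SPARC had 1593, 1679 and 1604 CPM at 0 h, 1689, 1745 and 1656 at 1 h, 1898, 1998 and 1908 at 2 h and 2442, 2424 and 2323 at 4 h, again with no overlap (slope 0.15 log2 per h, SE 0.012, adjusted p 4.18e-08). Under GAPDH and ACTB scaling FN1 had a slope of 0.018 and SPARC of 0.0077 log2 per h, both short of the threshold. THBS1, a secreted glycoprotein and a known immediate early gene, had 127, 79.8 and 53.3 CPM at 0 h, 113, 84.6 and 43.3 at 1 h, 90.7, 69.0 and 40.7 at 2 h and 92.1, 64.3 and 39.3 at 4 h. Replicates 1, 2 and 3 stood in the same order at every time point, with geometric means over time of 105, 74.1 and 43.9 CPM, so the 0 h and 4 h ranges overlapped. The slope of THBS1 was the lowest of the 49 members and missed the threshold without a block (slope -0.11 log2 per h, SE 0.087, adjusted p 0.293), with -0.19 without 4 h replicate 1 and -0.043 without 0 h replicate 1. Within replicates it was -0.12, -0.094 and -0.10 log2 per h, and with replicates as blocks THBS1 fell (slope -0.11 log2 per h, SE 0.019, adjusted p 0.000111). Scaled to GAPDH and ACTB, it fell without the block as well, at -0.25 log2 per h (adjusted p 0.00686).

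AU-rich elements in 3′ UTRs are known to shorten the life of many immediate early mRNAs, so the annotated 3′ UTRs of the members' canonical transcripts (GENCODE 44, GRCh38) were searched for the nonamer TTATTTATT on the transcript strand. It occurred in 6 of 49 tested members and in 10.1% of 10815 tested protein-coding genes with an annotated 3′ UTR. The windows around it are shown because they include the member with the lowest slope and members that rose. Each is written 5′ to 3′ with the nonamer in capitals, and its place is counted in bases from the start of the 3′ UTR, on chromosomes 15 (THBS1, plus strand), 2 (ITGA4 and COL3A1, plus strand), 3 (COL8A1, plus strand), 10 (ITGB1, minus strand) and 6 (COL12A1, minus strand).
THBS1: taaatacagaTTATTTATTaactctgttc
ITGA4: aagttgctttTTATTTATTgaaa
COL8A1: atcttccaacTTATTTATTggttgtcact
ITGB1: tttactgaagTTATTTATTaaatatgcct
COL3A1: aaaattccagTTATTTATTtccaaaatgt
COL12A1: ctgccttataTTATTTATTtctgaaacaa
The nonamer starts at base 1143 of 4097 in THBS1, 3401 of 3413 in ITGA4, 2440 of 3081 in COL8A1, 1143 of 1252 in ITGB1, 102 of 972 in COL3A1 and 2167 of 2221 in COL12A1. The slopes of these genes were -0.11, 0.054, 0.12, 0.13, 0.14 and 0.15 log2 per h in the same order. ITGB1, COL3A1 and COL12A1 rose, and THBS1, ITGA4 and COL8A1 missed the threshold without a block (adjusted p 0.293, 0.258 and 0.0607 in edgeR). Whether the nonamer had a part in the slopes was not tested. The pentamer ATTTA, which lies inside the nonamer, was in the 3′ UTR of 40 of 49 members and of 75.1% of all. THBS1 held 8 copies (1.95 per kb of 3′ UTR) and FN1 2 (2.90 per kb). Members that rose held from 0 copies (COL6A1) to 29 (ITGA1).

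Of the 4 tested integrin beta chains, 3 rose and 0 fell, and under GAPDH and ACTB scaling 0 rose and 0 fell. ITGB1 had 668, 626 and 631 CPM at 0 h, 672, 643 and 618 at 1 h, 779, 747 and 739.8 at 2 h and 921, 909 and 847 at 4 h. It rose (slope 0.13 log2 per h, SE 0.014, adjusted p 9.98e-07), with -0.0096 log2 per h under GAPDH and ACTB scaling. ITGB5, the vitronectin receptor chain that pairs with ITGAV, had 197, 164 and 162 CPM at 0 h, 200.0, 167 and 172 at 1 h, 239, 197 and 204 at 2 h and 281, 225 and 239 at 4 h. It rose (slope 0.14 log2 per h, SE 0.025, adjusted p 0.000141), or -0.0026 log2 per h under GAPDH and ACTB scaling, with replicate 1 the highest at each time. ITGB2, the beta chain of leukocyte integrins, was at 5.62 ± 0.398 CPM at 0 h and 9.42 ± 0.805 CPM at 4 h (SD, n = 3) and rose (slope 0.18 log2 per h, SE 0.034, adjusted p 0.000198). Its alpha partners ITGAL, ITGAM, ITGAX and ITGAD were below the filter, with at most 14 counts in any library (ITGAX). The table also lists ITGB2-AS1, and whether reads were counted by strand is not given in the sources used here. ITGB8, which with ITGAV activates latent TGF-beta, was at 3.06 ± 1.29 CPM at 0 h and 3.89 ± 1.78 CPM at 4 h (SD, n = 3) with a slope of 0.094 log2 per h (SE 0.081, adjusted p 0.324). ITGB3, ITGB4, ITGB6 and ITGB7 were below the filter, with at most 15 counts (ITGB4).

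Of the 10 tested integrin alpha chains, 7 rose and 0 fell, while under GAPDH and ACTB scaling 0 rose and 3 fell (ITGA4, ITGA5 and ITGA6). Among the fibronectin and RGD receptor chains, ITGA5 had 534, 517 and 487 CPM at 0 h, 581, 545 and 501 at 1 h, 614, 595 and 552 at 2 h and 732, 663 and 618 at 4 h. It rose (slope 0.098 log2 per h, SE 0.016, adjusted p 6.84e-05) and fell under GAPDH and ACTB scaling at -0.040 log2 per h (adjusted p 0.0158). ITGAV, which pairs with several beta chains, had 157, 145 and 153 CPM at 0 h, 156, 162 and 145 at 1 h, 181, 187 and 173 at 2 h and 196, 216 and 184 at 4 h. It rose (slope 0.11 log2 per h, SE 0.017, adjusted p 4.41e-05), or -0.033 log2 per h under GAPDH and ACTB scaling. ITGA4, which binds fibronectin and VCAM1, was at 17.7 ± 4.39 CPM at 0 h and 20.6 ± 3.54 CPM at 4 h (SD, n = 3), with overlapping ranges and a slope of 0.054 log2 per h (adjusted p 0.258, adjusted p 0.0372 with replicates as blocks). Leaving out 1 library gave ITGA4 slopes from 0.026 (without 0 h replicate 3) to 0.087 (without 0 h replicate 1). Scaled to GAPDH and ACTB, ITGA4 fell at -0.084 log2 per h (adjusted p 0.0368).

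The laminin receptor chains differed among themselves. ITGA6 had 30.7, 20.0 and 20.0 CPM at 0 h, 27.9, 20.2 and 18.4 at 1 h, 30.7, 23.1 and 18.6 at 2 h and 30.3, 22.4 and 18.1 at 4 h. Replicate 1 was above the others throughout, and the slope was 0.0082 log2 per h (SE 0.053, adjusted p 0.901), close to the median of all genes, or -0.13 under GAPDH and ACTB scaling, where it fell (adjusted p 0.0129). ITGA3 had 47.5, 52.1 and 36.3 CPM at 0 h, 51.5, 60.3 and 36.1 at 1 h, 55.4, 61.1 and 43.2 at 2 h and 67.7, 79.2 and 54.6 at 4 h. ITGA3 rose (slope 0.14 log2 per h, SE 0.042, adjusted p 0.00685) with replicate 3 the lowest at 0 h and 4 h, and the call was lost without 4 h replicate 2 (adjusted p 0.0558). ITGA7, the laminin receptor of muscle, was at 7.52 ± 0.496 CPM at 0 h and 12.7 ± 0.643 CPM at 4 h (SD, n = 3) and rose (slope 0.18 log2 per h, SE 0.029, adjusted p 4.32e-05). Of the collagen receptor chains, ITGA1 was at 7.43 ± 1.63 CPM at 0 h and 11.98 ± 1.62 CPM at 4 h (SD, n = 3) and rose (slope 0.17 log2 per h, SE 0.041, adjusted p 0.00131). ITGA11 was at 6.60 ± 1.22 CPM at 0 h and 10.00 ± 0.396 CPM at 4 h (SD, n = 3) and rose (slope 0.15 log2 per h, SE 0.037, adjusted p 0.00230). ITGA2 was at 1.69 ± 0.291 CPM at 0 h and 1.60 ± 0.224 CPM at 4 h (SD, n = 3) with a slope of 0.0092 log2 per h (adjusted p 0.926), or -0.13 under GAPDH and ACTB scaling. ITGAE, which with ITGB7 binds E-cadherin, had 41.8, 43.1 and 39.0 CPM at 0 h, 38.5, 38.9 and 41.0 at 1 h, 44.5, 43.9 and 45.9 at 2 h and 52.7, 54.5 and 51.8 at 4 h, and it rose (slope 0.10 log2 per h, SE 0.018, adjusted p 0.000146), or -0.036 under GAPDH and ACTB scaling. ITGA10, ITGA2B, ITGA8, ITGA9, ITGAL, ITGAM, ITGAX and ITGAD were below the filter, with at most 14 counts in a library.

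Ratios within a library do not depend on the scaling, so 20 pairs of chains or partners in which each gene had a mean of at least 10 counts were also followed as log2 ratios of counts. In exact permutation tests over all 12 libraries, 0 of 20 ratios passed after adjustment over the pairs (lowest adjusted p 0.181), and 4 were at an unadjusted p below 0.05. When times were permuted only within replicate numbers, 9 of 20 passed. Ratios of other gene pairs were not tested, so this count has no share over pairs in general beside it. Among single genes, 36.2% rose and 34.8% fell with replicates as blocks. Those shares come from edgeR slopes adjusted over all tested genes, so they are not a baseline for the ratios. The THBS1 to FN1 ratio dropped the most (slope -0.26 log2 per h, SE 0.12, two-sided exact permutation p 0.0563, adjusted p 0.181), with slopes of -0.25, -0.27 and -0.25 log2 per h in replicates 1, 2 and 3, and passed within replicates at an adjusted p of 0.000723. The ITGA6 to ITGB1 ratio, for a laminin receptor, followed (slope -0.12 log2 per h, SE 0.053, two-sided exact permutation p 0.0454, adjusted p 0.181), with 0.000723 within replicates. For both, the unadjusted p within replicates was 7.23e-05, the smallest that these permutations can give.

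The 7 other ratios that passed within replicates moved less. The LAMB2 to LAMB1 ratio of counts lay at 0.144 to 0.164 at 0 h and at 0.174 to 0.203 at 4 h, without overlap (slope 0.070 log2 per h, adjusted p 0.0301 within replicates and 0.181 over all libraries). COL1A1 to COL1A2 lay at 37.0 to 49.6 at 0 h and at 48.5 to 56.2 at 4 h (adjusted p 0.0391 within replicates), and COL4A1 to COL4A2 at 0.815 to 0.921 at 0 h and at 0.718 to 0.884 at 4 h (adjusted p 0.0323), both with overlapping ranges. COL6A3 to COL6A1 (slope -0.11, adjusted p 0.0301), LAMB1 to LAMC1 (-0.033, adjusted p 0.0400) and ITGA4 to ITGB1 (-0.073, adjusted p 0.0345) had negative slopes within replicates. FN1 to ITGA5 had a positive slope, 0.058 log2 per h (adjusted p 0.0301 within replicates). The 11 that did not pass either way were COL5A1 to COL5A2, COL6A1 to COL6A2, COL9A2 to COL9A3, LAMA5 to LAMC1, ITGAV to ITGB5 and the ratios of ITGA1, ITGA2, ITGA3, ITGA5, ITGA7 and ITGAV to ITGB1, with slopes from -0.11 to 0.086 log2 per h.

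**Figure D5:**
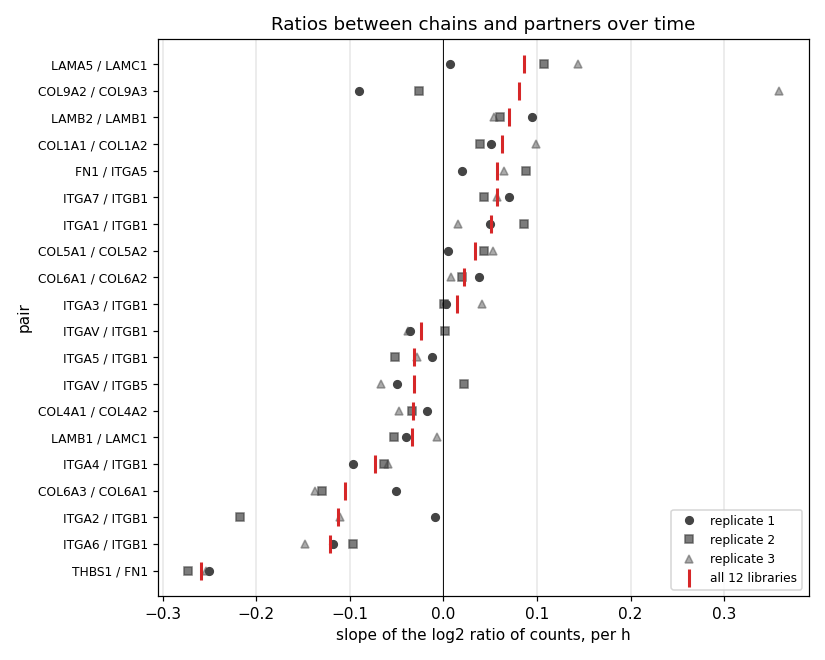
Slope of the log2 ratio of counts over time (horizontal axis, per h) for 20 pairs (vertical axis), with a marker for each replicate and a red bar for all 12 libraries. The THBS1 to FN1 markers lie together at the far left, the ITGA6 to ITGB1 markers are all negative, and the COL9A2 to COL9A3 markers are spread on both sides of 0.

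Replicates of the same number kept their differences over time. In a test of the replicate number added after seeing the values, 36 of 49 members differed between replicate numbers (adjusted p below 0.05, edgeR), beside 44.6% of all tested genes. The median count was 545 for the members and 304 for all tested genes. The highest replicate exceeded the lowest by a median of 1.24-fold over the members. COL6A3 differed most, with geometric means over time of 22.0, 55.0 and 30.05 CPM in replicates 1, 2 and 3, or 2.50-fold between the highest and the lowest. THBS1 came next at 2.38-fold, then LAMA3 (4.68, 2.98 and 2.19 CPM) and COL11A1 (7.42, 4.53 and 9.19 CPM). Replicate 1 was the highest in THBS1, LAMA3 and ITGA6 and the lowest in COL6A3 and LAMA5. FN1 (adjusted p 0.0742), COL5A1 (0.460) and ITGAE (0.911) were among the members that missed this threshold.

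The members' transcripts were long and built of many exons. The canonical transcripts of the 49 tested members had a median length of 5914 bases and 32 exons, against 3535 bases and 9 exons over 10815 tested protein-coding genes. Their GC content was a median of 54.5% against 47.9%, and the 3′ UTR a median of 1167 against 1417 bases. Across the 49 members GC content and slope went together (Spearman's rho 0.69, Pearson's r 0.62), where all genes gave a rho of 0.27. For exons per kb of transcript the rho with the slope was 0.42 in the members and 0.46 in all genes. The rho between the number of ATTTA pentamers and the slope was -0.45 in the members (Pearson's r -0.29) and -0.31 in all genes. For 3′ UTR length it was -0.28 and -0.27. These values describe genes measured in the same 12 libraries, which are not independent replicates. No ATTTA was found in the 3′ UTR of 9 members, of which COL6A1, COL6A2, COL7A1, COL16A1, COL18A1 and LAMA5 had slopes from 0.20 to 0.23 log2 per h and 62.3% to 67.2% GC. The others were LAMB2 (0.16 log2 per h), LAMB3 (0.063) and LAMA2 (0.0018), whereas ITGA2, ITGA4 and ITGA6 had 39.0% to 42.5% GC and 15, 15 and 8 copies. ITGB1, ITGAV and ITGA1 rose with a GC content of 39.5%, 38.3% and 38.7%. ITGAV held 21 copies of ATTTA and ITGA1 29, the most of the 49 members. Whether GC content had a part in the slopes was not tested.

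Genes that make, bind or cut these proteins were counted in the same way. Over all tested genes, 30.7% rose and 32.1% fell under TMM scaling. Under GAPDH and ACTB scaling these shares were 0.931% and 64.2%. Of 29 tested genes of collagen modification, folding, export and cross-linking, 23 rose and 3 fell, and under GAPDH and ACTB scaling 1 rose and 6 fell. The largest changes were those of PCOLCE (0.21 log2 per h, SE 0.021, adjusted p 2.58e-07), which enhances the cleavage of procollagen, and BMP1 (0.19 log2 per h, SE 0.018, adjusted p 1.09e-07), the protease that cleaves it. Those that fell were LARP6 (-0.14 log2 per h), which binds the 5′ stem-loop of type I collagen mRNAs, and CTAGE5 (-0.086) and MIA3 (-0.041), which load procollagen into carriers. The chaperone SERPINH1 rose at 0.13 log2 per h, or -0.010 under GAPDH and ACTB scaling. Of 16 tested basement membrane and matrix partners, 12 rose and 1 fell (2 and 1 under GAPDH and ACTB scaling), led by AGRN (0.21 log2 per h, SE 0.027, adjusted p 4.09e-06), a laminin-binding proteoglycan, and BGN (0.20 log2 per h, SE 0.013, adjusted p 5.64e-09), a small collagen-binding proteoglycan. EGFLAM, a dystroglycan ligand, was the one that fell (-0.10 log2 per h). Of 6 tested matricellular genes beside THBS1 and SPARC, 3 rose and 0 fell (0 and 0 under GAPDH and ACTB scaling), with THBS3 at 0.20 and FSTL1 at 0.14 log2 per h. Scaled to GAPDH and ACTB, FSTL1 had a slope of -0.0016 log2 per h.

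Genes of the adhesion plaque, which links integrins to actin, were also counted. Of 28 tested genes 10 rose and 5 fell, beside 30.7% and 32.1% of all tested genes, and under GAPDH and ACTB scaling 0 rose and 15 fell. With replicates as blocks, 17 rose and 5 fell, beside 36.2% and 34.8% of all tested genes. NEDD9 and BCAR1, docking proteins of the same family, changed most, NEDD9 at -1.02 (SE 0.079, adjusted p 2.02e-08) and BCAR1 at -0.28 log2 per h (SE 0.045, adjusted p 4.40e-05). Their partners CRK (-0.21) and SRC (-0.20) and the tensin TNS1 (-0.096) fell as well. The structural genes TLN1 (0.14), FLNA (0.16) and ACTN4 (0.15) rose under TMM scaling and had slopes of 0.0030, 0.019 and 0.0069 log2 per h under GAPDH and ACTB scaling.

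Of 13 tested matrix receptors that are not integrins, 6 rose and 0 fell, and under GAPDH and ACTB scaling 0 rose and 4 fell. With replicates as blocks 10 rose. For this list and the 2 that follow, the shares over all tested genes were 30.7% rising and 32.1% falling. They were 0.931% and 64.2% under GAPDH and ACTB scaling, and 36.2% and 34.8% with the block. The largest slopes were those of BCAM (0.22 log2 per h, SE 0.047, adjusted p 0.000522), which binds laminin alpha5, and MRC2 (0.19 log2 per h, SE 0.033, adjusted p 9.93e-05), a collagen uptake receptor. Of 19 tested matrix proteases and inhibitors, 8 rose and 2 fell, against 0 and 5 under GAPDH and ACTB scaling. With the block 12 rose. ADAMTS1 (-0.49 log2 per h, SE 0.051, adjusted p 4.18e-07) and TIMP2 (0.17 log2 per h, SE 0.013, adjusted p 1.62e-08) changed most among them, and ADAMTS4 fell too (-0.14 log2 per h). MMP1, interstitial collagenase, was the most abundant of them at 2870.3 ± 279 CPM at 0 h (SD, n = 3) and rose at 0.13 log2 per h, or -0.012 under GAPDH and ACTB scaling. Among the Ewing sarcoma markers 3 of 12 rose and 5 fell, with NKX2-2 (-0.65 log2 per h, SE 0.060, adjusted p 1.30e-07) and NR0B1 (-0.53 log2 per h, SE 0.046, adjusted p 6.10e-08) the largest, and under GAPDH and ACTB scaling 0 rose and 10 fell.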

How the data were processed

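RNA-Seq was performed on 12 libraries of poly(A) RNA from shA673-1c cells, 3 at each of 4 time points, with a stranded kit. The authors deposited a table of raw gene counts, with no normalisation. The submitters' processing notes name FastQC, STAR and hg19, and the counting tool, its use of strand and all versions are not given in the sources used here. An antisense gene named after 4 tested members (COL18A1, COL4A2, ITGB2 and LAMA5) is listed in the table, so reads of these loci may be shared. All columns were matched to samples by name (0 unmatched).

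The 12032 genes that averaged 10 counts or more were fitted with edgeR 4.0.16 (R 4.3.3, limma 3.58.1): TMM scaling, quasi-likelihood F tests of a linear slope on hours, of 4 h against 0 h and of departure from a line, with Benjamini-Hochberg adjustment over all tested genes. The fits and the permutation tests were tested on simulated data. Pair ratios were log2 (count + 0.5) differences tested by two-sided exact permutation over 369600 arrangements, or 13824 within replicates, with Benjamini-Hochberg adjustment over 20 pairs. Alternatives were library totals, DESeq2 1.42.0, scaling to GAPDH plus ACTB, other count minimums, a replicate block and each library left out. Lengths and 3′ UTRs came from GENCODE 44 (GRCh38), which is not the build of the files, and no coordinates were carried over.

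Libraries that share a replicate number shifted together around their time means (18 pairs, r 0.300 to 0.612), so the numbers pair the samples. The 36 other pairs had r from -0.403 to 0.0842. Subtracting the time means pushes these below 0 when the same-number values are positive, so they are not an independent contrast. Counts of replicates differed by more than sampling noise (chi-square per degree of freedom 3.07 to 8.15 over 12 pairs). The labels call the replicates biological. Every tested member was named, those with a mean of at least 200 counts with all 12 values and the others with means. Full statistics were given for at least the 8 largest called slopes per family, or for all where fewer were called. From each related gene list the 2 largest called slopes were named, and further genes of these lists were chosen after their values were seen. The members and lists were chosen with earlier results of these data known. Some members and list genes are not reported here. Totals were 9147018 to 11194705 counts, and a gene at 10 counts carries a large counting error.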

Additional observations from a re-analysis of the deposited data

How the results depend on the processing

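Library totals, DESeq2's size factors and a minimum mean of 30 counts kept all counts of rising, falling and departing members within 1.5 times those under TMM scaling. Scaling to GAPDH and ACTB did not: 6 members then had a falling slope and 1 a rising slope, 4 were lower and 2 higher at 4 h, and the median slope of the members turned to -0.0013 log2 per h. Library totals, which give share of the library, gave a median slope of 0.098, beside -0.030 for all tested genes. With any count admitted, 1 member fell (COL19A1, named after its value was seen). With the replicate block 1 member fell and 1 was lower at 4 h (THBS1 in both), 7 courses departed from a line and 9 pair ratios passed, and beside these and the 7 slope calls gained (THBS1, COL6A3, COL8A1, COL4A5, COL11A1, COL26A1 and ITGA4) it changed no other slope call among the members. Slopes that turned negative under GAPDH and ACTB scaling were, in log2 per h, COL11A1 -0.0098, COL1A2 -0.022, COL21A1 -0.013, COL25A1 -0.13, COL27A1 -0.015, COL4A1 -0.0013, COL5A2 -0.0044, COL5A3 -0.0033, COL6A3 -0.027, COL8A1 -0.022, ITGA2 -0.13, ITGA4 -0.084, ITGA5 -0.040, ITGA6 -0.13, ITGAE -0.036, ITGAV -0.033, ITGB1 -0.0096, ITGB5 -0.0026, ITGB8 -0.046, LAMA2 -0.14, LAMB1 -0.046, LAMB3 -0.074 and LAMC1 -0.013. Library totals turned COL25A1 -0.030, ITGA2 -0.029, ITGA6 -0.031 and LAMA2 -0.037, and admitting any count turned LAMA2 to -0.00045. The fitted sign thus depended on the scaling for these members, and the cause of the shift between scalings was not tested. DESeq2 lost the calls of COL5A3 and LAMB3, and library totals those of COL21A1, COL27A1, COL5A3, LAMB1 and LAMB3.

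With each of the 12 libraries left out in turn, 33 to 36 members rose and 0 fell, 32 to 34 were higher and 0 lower at 4 h, 0 departed from a line, the median slope was 0.13 to 0.15 log2 per h and 0 to 1 pair ratios passed (LAMB2 to LAMB1, without 1 h replicate 3). The sign changed in 6 members short of the threshold, whose slopes ranged over -0.030 to 0.055 (COL25A1), -0.0069 to 0.041 (ITGA2), -0.040 to 0.050 (ITGA6), -0.010 to 0.14 (ITGB8), -0.031 to 0.027 (LAMA2) and -0.10 to 0.047 (LAMA3) log2 per h. Calls were gained by COL26A1, COL4A5 and COL8A1. Members with few counts, such as COL9A2 and ITGA2, have wide errors at this depth, and a missed threshold there does not show a constant level.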
